A study of Mus musculus with 12 samples.

Results

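The actin and tropomyosin genes measured in the tibialis anterior of Smyd1 mutant mice were Acta1, Actc1, Acta2, Actb, Actg1, Tpm1, Tpm2, Tpm3 and Tpm4. These 9 genes, 5 actins and 4 tropomyosins, were chosen by symbol from the 23923 genes with a usable name, and all 9 were among the 12695 genes tested. RNA was sequenced from the tibialis anterior, a fast-twitch muscle, of 12 mice 6 weeks of age, with 1 library per mouse. After its first histology the study used tissue of males only, and it reports the sequencing after that point. The 6 controls were Myf6 cre/+; Smyd1 flox/+ and the 6 mutants (Smyd1 CKO) were Myf6 cre/+; Smyd1 flox/-, all on a C57BL6/J;129S1/SvImJ background. Controls therefore carried the Cre allele and a floxed Smyd1 allele as well, so the comparison is between mice with a single working copy and mice with none in the cells that recombined. The study's methods add a Cre-dependent YFP reporter at Rosa26 in both genotypes. Cre was expressed from the Myf6 gene, which is active in skeletal myocytes. Other cells of the muscle kept the Smyd1 alleles they inherited, so in CKOs they still carried the null allele that controls lacked.

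Actin and tropomyosin are the main proteins of the thin filament of the sarcomere. Actin monomers polymerize into the filament, and tropomyosin dimers lie along it and, together with the troponins, set whether myosin can bind. Acta1 encodes the skeletal alpha-actin of adult muscle, and Actc1 the cardiac alpha-actin that is also abundant in embryonic and regenerating skeletal muscle. Acta2 is the actin of vascular smooth muscle, and Actb and Actg1 are the cytoplasmic actins present in nearly every cell. Tpm1 and Tpm2 encode the alpha- and beta-tropomyosin of skeletal muscle. Tpm3 encodes a tropomyosin of slow fibers together with cytoplasmic forms, and Tpm4 encodes mainly cytoplasmic forms. Smyd1 is a muscle-specific methyltransferase known for its part in sarcomere assembly. The values below are FPKM, fragments normalized to transcript length and to the mapped reads of the library, given once per gene, so the muscle and cytoplasmic forms made from the same tropomyosin gene could not be separated.

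The actin genes are so alike that the sequence decides which of them a read can measure. The coding sequences of Acta1 and Actc1, each 1134 bases in GENCODE release M21, were identical at 977 positions, or 86.2%, and their longest identical run was 29 bases. A stretch with 8 differences, at coding positions 434 to 463 counted from the start codon, is shown to make clear how reads from the skeletal and the cardiac gene differ, with the differing bases in capitals. Acta1 lies on chromosome 8 from 123891769 to 123894751 and Actc1 on chromosome 2 from 114047282 to 114053548, both on the minus strand of GRCm38.
Acta1: atgcttcCggCCgTaccacCggcatCgtGT
Actc1: atgcttcTggAAgAaccacAggcatTgtTC

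The authors discarded reads that mapped to several places, so each transcript was searched for 50-base windows that occur unchanged in a transcript of another gene. None of the windows of Actc1, Tpm1 or Tpm2 did, 2.22% of those of Acta1 did, and 0.353% of those of Acta2 did. The share was 14.2% for Actb and 16.1% for Tpm4. It was 56.7% for Actg1, including 100% of its coding windows, mostly with processed pseudogenes such as Gm12715. For Tpm3 it was 62.4%, all of it shared with Tpm3-rs7, a near copy of the gene that has no row in the files. With windows of 100 bases the shares were 51.0% for Actg1 and 45.7% for Tpm3. The levels of Actg1 and Tpm3 are thus uncertain, and how far the discarded reads lowered them was not tested.

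The summed FPKM of the libraries lay between 110124 and 156610, the depth relative to control 1, read from the steps between low values, between 0.983 and 1.77, and the correlation between libraries of the same group, across genes, between 0.943 and 0.972. The 12 fast fiber genes summed to between 24077 and 39122 FPKM per mouse and the 10 slow fiber genes to between 56.8 and 484 FPKM, so genes of fast fibers prevailed in every library, as the label of the muscle implies. Control 1 stood apart, with 865 FPKM over 8 fibroblast markers against 228 to 290 in the other controls and 304 to 510 in CKOs. Smyd1 itself ranged from 32.9 to 47.1 FPKM, with a median of 34.9, in controls and from 27.8 to 39.9, with a median of 33.5, in CKOs (log2 fold change -0.13, SE 0.12, adjusted P = 0.545 in limma). After median-ratio scaling, which sets the typical gene to no change, the log2 fold change was -0.32 (adjusted P = 0.0797 in limma). FPKM covers the whole gene, and the sources used here do not give the part that was deleted. The Smyd1 level therefore does not check the labels. By western blot the study could not detect SMYD1 protein in the tibialis anterior of CKOs.

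Tpm1 and Acta1 were by far the most abundant of the 9 genes in control muscle. Their means were 5258 ± 1026 and 4604 ± 370 FPKM (SD, n = 6), and their ranges overlapped, although Tpm1 was the higher in 5 of 6 controls. Tpm2 followed at 1124 ± 124 FPKM, then Actc1 at 186 ± 53.3 FPKM and Actb at 52.7 ± 9.45 FPKM, each above the next in all 6 controls with no overlap. Acta2 at 7.15 ± 1.72 FPKM, Tpm4 at 7.02 ± 3.12 FPKM and Tpm3 at 3.85 ± 1.01 FPKM had overlapping ranges. Actg1 was lowest at 0.828 ± 0.276 FPKM. The order of the means in CKOs was the same down to Actb. There Tpm3, at 11.2 ± 9.80 FPKM, had the highest mean of the 3 tropomyosin and smooth muscle actin genes that overlapped.

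**Figure D1:**
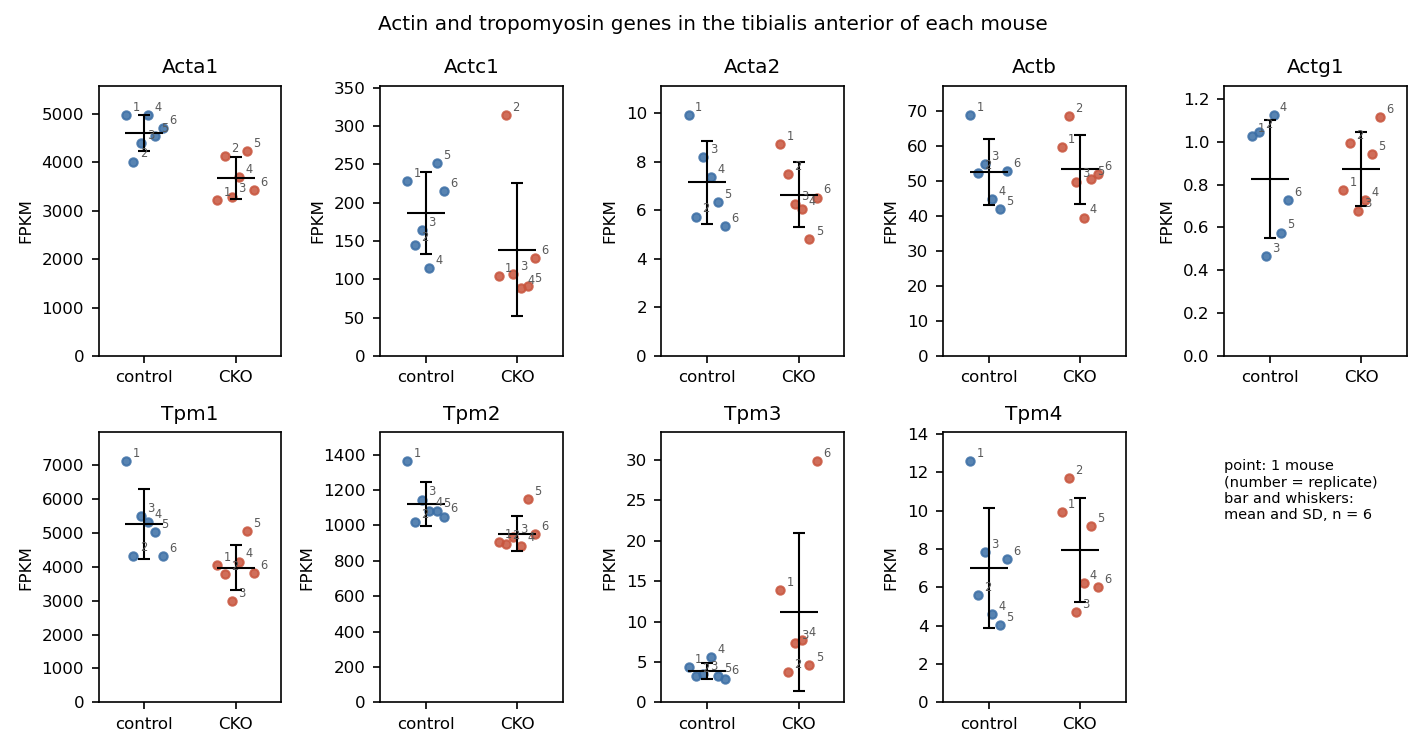
FPKM of the 9 genes in each mouse (y axis, linear and starting at 0), with 1 point per mouse numbered by replicate, and the mean and SD of each group (n = 6). Acta1, Tpm1 and Tpm2 sit lower in most CKOs, Tpm3 is spread from 3.74 to 29.8 FPKM in CKOs, and Actb, Acta2, Actg1 and Tpm4 overlap throughout.

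Comparing CKO with control tissue asked which thin filament genes change when myofibers lose Smyd1. In limma on log2(FPKM + 0.1), none of the 9 genes passed an adjusted P below 0.05 in either direction, where 2.02% of all genes tested did so as higher and 0.268% as lower in CKOs. At an unadjusted P below 0.05, 1 of 9 was higher (Tpm3, against 18.1% of all genes) and 2 of 9 were lower (Acta1 and Tpm1, against 1.76% of all genes). The sarcomeric genes Acta1, Actc1, Tpm1 and Tpm2 all had negative log2 fold changes, while the median over all genes tested was 0.18, so that each of these 4 lay 0.41 to 0.71 log2 units below the typical gene. The unadjusted count of lower genes was 0 without control 1, control 3, control 5, CKO 1, CKO 3 or CKO 6, each left out on its own, 1 without control 4, control 6 or CKO 4, and 2 or 3 otherwise. Median-ratio scaling, which sets the typical gene to no change, moved the median of all genes to 0.0079 and gave 4 of 9 lower and 1 of 9 higher at the unadjusted threshold (7.44% and 6.62% of all genes), with 0 past the adjusted one (0.709% lower and 0.764% higher among all genes). For 0 of 9 genes did all CKO values lie above or below all control values, against 2.23% of all genes for higher and 0.189% for lower. In these bulk samples, fewer cells of a type and less RNA per cell cannot be told apart.

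**Figure D2:**
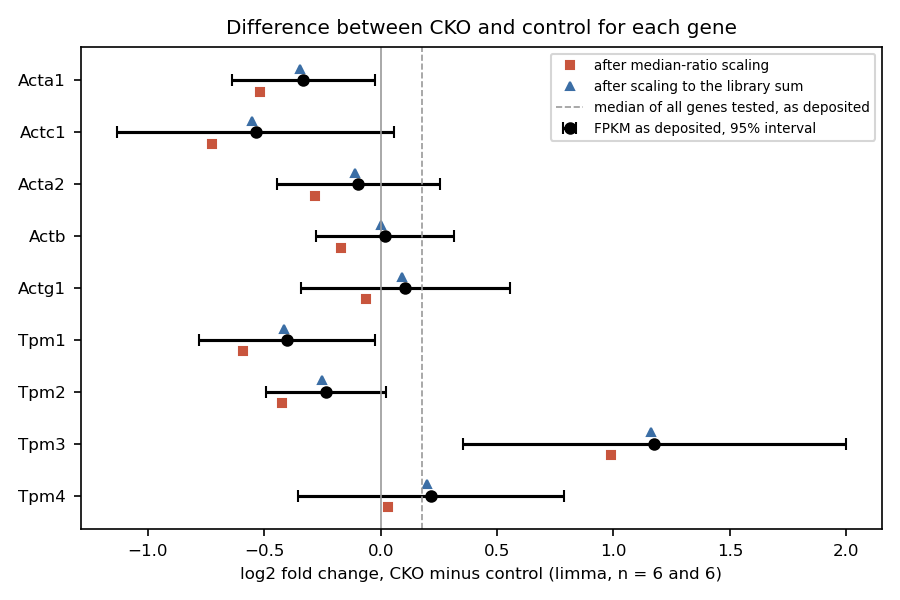
Log2 fold change (x axis, CKO minus control) of each gene with its 95% interval from limma on the FPKM as deposited (circles, n = 6 and 6), and the values after median-ratio scaling (squares) and after scaling to the library sum (triangles). The dashed line marks the median over all genes tested, 0.18, and the squares lie to the left of the circles for every gene.

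Acta1, the actin of adult skeletal fibers, had lower values in most CKOs. Control mice had between 4019 and 4982 FPKM, with a median of 4623, and CKOs between 3226 and 4241, with a median of 3559. In 4 of 6 CKOs the value lay below every control, and CKO 2 and CKO 5 reached into the control range, above the lowest control. The log2 fold change was -0.33 (SE 0.14, 95% interval -0.64 to -0.023, adjusted P = 0.218), which is 0.795 times the control level. After median-ratio scaling it was -0.52 (adjusted P = 0.112).

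Actc1, the cardiac alpha-actin, ran from 115 to 252 FPKM in controls (median 190) and from 88.8 to 314 FPKM in CKOs (median 106). Of the 6 CKOs, 4 had less than any control, CKO 6 at 128 FPKM fell within the control range, and CKO 2 at 314 FPKM was above every control. Over all 12 mice the log2 fold change was -0.54 (SE 0.28, 95% interval -1.13 to 0.059, adjusted P = 0.296). Without CKO 2 it was -0.81 with an adjusted P of 0.0389, so that this single library decides the call. Actc1 made up 3.89 ± 1.03% of the summed Acta1 and Actc1 FPKM in controls and 3.56 ± 1.80% in CKOs (SD, n = 6). The range was 2.25 to 5.25% in controls and 2.097 to 7.07% in CKOs, and the highest value was that of CKO 2.

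Tpm1, the alpha-tropomyosin, was between 4310 and 7098 FPKM in controls (median 5166) and between 2979 and 5045 FPKM in CKOs (median 3927). Only CKO 5 lay above the lowest control, and control 1 was the highest mouse of all. The log2 fold change was -0.40 (SE 0.18, 95% interval -0.78 to -0.024, adjusted P = 0.223). Tpm2, the beta-tropomyosin, was between 1018 and 1362 FPKM in controls (median 1083) and between 886 and 1151 FPKM in CKOs (median 921). Again 5 of 6 CKOs lay below every control and CKO 5 overlapped them. Its log2 fold change was -0.23 (SE 0.12, 95% interval -0.49 to 0.022, adjusted P = 0.291). Median-ratio scaling gave -0.59 for Tpm1 (adjusted P = 0.0880) and -0.42 for Tpm2 (adjusted P = 0.0601).

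The share of each library's summed FPKM was also compared. This quantity was chosen after the values were seen. Tpm1 took 3.69 to 4.53% in controls (median 4.14%) and 2.48 to 3.64% in CKOs (median 3.07%), and Tpm2 took 0.860 to 0.924% (median 0.885%) and 0.691 to 0.832% (median 0.743%). For both genes the groups did not overlap, which held for 2 of the 9 genes in this direction and for 0.236% of all genes tested. In the other direction it held for 0 of 9 and for 2.56% of all genes. For Acta1 the share was 3.18 to 4.03% in controls and 2.45 to 3.31% in CKOs, where CKO 2 lay above control 1 and control 3. All 9 genes together made up 8.87 ± 0.295% of the summed FPKM in controls and 6.89 ± 0.580% in CKOs (SD, n = 6), with ranges of 8.45 to 9.28% and 6.15 to 7.66%. In limma on values scaled to the library sum, the log2 fold change was -0.42 for Tpm1 (adjusted P = 0.0796), -0.25 for Tpm2 (adjusted P = 0.129) and -0.35 for Acta1 (adjusted P = 0.127). At the unadjusted threshold these 3 genes were lower and Tpm3 higher, or 3 of 9 and 1 of 9, against 2.18% and 18.4% of all genes. With this scaling 0 of the 9 genes passed the adjusted threshold, against 2.65% of all genes as higher and 0.354% as lower. The sum over the 9 genes was given no test.

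**Figure D3:**
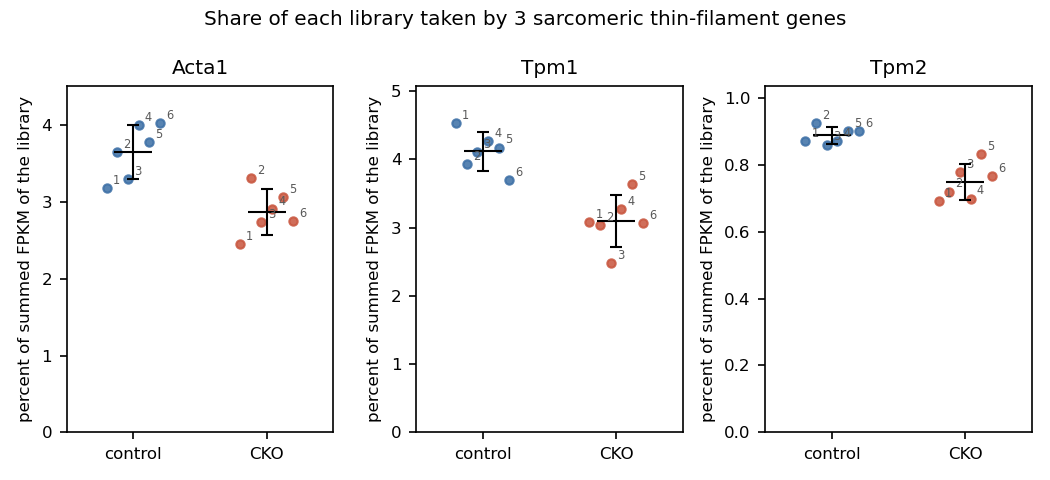
Percent of the summed FPKM of each library (y axis, starting at 0) taken by Acta1, Tpm1 and Tpm2, with 1 point per mouse numbered by replicate and the mean and SD of each group (n = 6). The CKO points lie below all control points for Tpm1 and Tpm2, and for Acta1 CKO 2 lies above control 1 and control 3.

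Tpm3, the gene of slow fiber tropomyosin, had the highest log2 fold change of the 9 genes and the largest SE. Controls lay between 2.95 and 5.65 FPKM (median 3.41) and CKOs between 3.74 and 29.8 FPKM (median 7.54). CKO 1, CKO 3, CKO 4 and CKO 6 were above every control, and CKO 2 and CKO 5 were within the control range. The log2 fold change was 1.18 (SE 0.39, 95% interval 0.35 to 1.997, adjusted P = 0.119), or 2.26-fold. With sample weights, which count discordant libraries less, it was 1.37 with an adjusted P of 0.0291. Even the highest value, 29.8 FPKM in CKO 6, was 0.623% of the summed Tpm1, Tpm2 and Tpm3 FPKM of that mouse, and the control mean was 0.0606 ± 0.0140% (SD, n = 6).

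Slow fiber genes varied from mouse to mouse in the same libraries. Of 10 slow fiber genes tested, 9 had positive log2 fold changes, where 77.9% of all genes did. At an unadjusted P below 0.05, 7 were higher, against 18.1% of all genes, and 0 passed the adjusted threshold. Their median was 1.23 against 0.18 for all genes. The summed level of the 10 was between 56.8 and 238 FPKM in controls (median 82.2) and between 65.8 and 484 FPKM in CKOs (median 155). CKO 6, the mouse with the most Tpm3, had the highest sum at 484 FPKM, followed by CKO 1 at 246 FPKM. Control 1 had the next sum, 238 FPKM, with 4.39 FPKM of Tpm3, and CKO 4 had only 65.8 FPKM with 7.72 FPKM of Tpm3. Among the slow troponins, which share the thin filament with slow tropomyosin, Tnni1 was 0.345 ± 0.280 FPKM in controls and 4.58 ± 5.82 FPKM in CKOs (SD, n = 6; log2 fold change 2.41, adjusted P = 0.119), and Tnnt1 was 3.51 ± 1.70 and 18.7 ± 22.8 FPKM (log2 fold change 1.57, adjusted P = 0.204). Of 8 troponin genes, 3 were higher and 0 lower before adjustment, against 18.1% and 1.76% of all genes. After median-ratio scaling 2 were higher and 3 lower before adjustment, against 6.62% and 7.44% of all genes. Of the 8, 0 passed the adjusted threshold either way. The summed FPKM of these 8, mostly from fast troponins, was 13761 ± 2413 in controls and 10859 ± 1397 in CKOs (SD, n = 6). By immunofluorescence the study found that the share of slow (type I) fibers in this muscle did not differ significantly between the genotypes. Its western blots showed almost no slow myosin protein there. The part of the slow fiber content in the Tpm3 values was not tested.

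**Figure D4:**
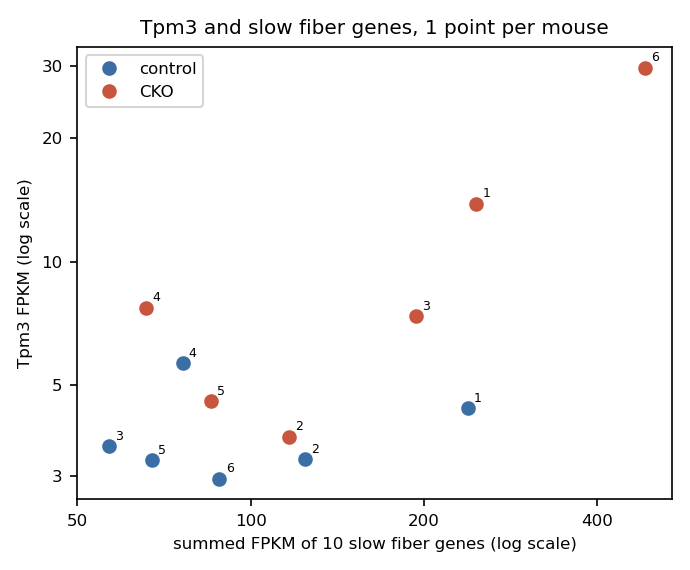
Tpm3 FPKM (y axis, log scale) against the summed FPKM of 10 slow fiber genes (x axis, log scale), 1 point per mouse numbered by replicate. CKO 6 and CKO 1 are highest on both axes, while control 1 has a high slow fiber sum with 4.39 FPKM of Tpm3.

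The actins and the tropomyosin that serve mainly outside the sarcomere gave values that overlapped throughout. Actb was 42.0 to 69.0 FPKM in controls (median 52.6) and 39.6 to 68.6 FPKM in CKOs (median 51.4), with a log2 fold change of 0.018 (SE 0.14, 95% interval -0.28 to 0.32, adjusted P = 0.957). Its sign turned to -0.17 after median-ratio scaling. Acta2 was 5.35 to 9.93 FPKM in controls (median 6.85) and 4.83 to 8.73 FPKM in CKOs (median 6.39), a log2 fold change of -0.096 (SE 0.16, 95% interval -0.44 to 0.25, adjusted P = 0.768). Tpm4 was 4.02 to 12.6 FPKM (median 6.55) and 4.72 to 11.7 FPKM (median 7.72), a log2 fold change of 0.22 (SE 0.27, 95% interval -0.35 to 0.79, adjusted P = 0.674). Actg1 was 0.465 to 1.13 FPKM (median 0.878) and 0.676 to 1.118 FPKM (median 0.858), with a log2 fold change of 0.11 (95% interval -0.34 to 0.55, adjusted P = 0.802) that became -0.062 after median-ratio scaling. Of these genes, Actb, Acta2 and Tpm4 were each highest in control 1 among the controls, the mouse with the high fibroblast marker sum, whose part in these values was not tested. The 12 smooth muscle and pericyte markers, the cells in which Acta2 is abundant, summed to 61.4 to 106 FPKM in controls and 67.6 to 92.1 FPKM in CKOs. Of these 12, 1 was higher before adjustment and 0 after it, where 18.1% and 2.02% of all genes were. Among 8 fibroblast markers 2 were higher before adjustment, against the same 18.1% of all genes, and 0 after it. Among the 8 endothelial and 7 macrophage markers tested, 0 passed either threshold.

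Ratios between the genes were formed within each mouse, since a ratio hardly depends on how a library is scaled. Of 10 ratios, 2 differed at an unadjusted P below 0.05 in an exact two-sided permutation test over all assignments of 6 and 6 mice, whose smallest possible P is 0.00216, and 0 did after Benjamini-Hochberg adjustment over the 10. The ratio of Tpm3 to Tpm1 ranged from 0.000619 to 0.00106 in controls (median 0.000669) and from 0.000906 to 0.00784 in CKOs (median 0.00217). CKO 2 and CKO 5 lay below control 4, which was the only control they did not exceed. The mean log2 ratio was higher by 1.58 in CKOs, or 2.98-fold (exact permutation P = 0.00649, adjusted P = 0.0541). The ratio of Tpm3 to Tpm2 ranged from 0.00281 to 0.00521 in controls and from 0.00397 to 0.0313 in CKOs, a log2 difference of 1.41 (exact permutation P = 0.0108, adjusted P = 0.0541). With 1 mouse left out at a time, the exact P stayed at or below 0.0173 for the first and 0.0260 for the second ratio.

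Among the actins, 0 of the ratios passed the unadjusted threshold over all 12 mice. The ratio of Actb to Acta1, cytoplasmic over sarcomeric actin, was 0.00900 to 0.0139 in controls and 0.0107 to 0.0185 in CKOs, and 4 of 6 CKOs were above every control (log2 difference 0.35, exact permutation P = 0.0563, adjusted P = 0.188). Without control 1, CKO 4 or CKO 5 the exact P was 0.0411, 0.0216 and 0.0455. Actc1 over Acta1, the fetal over the adult sarcomeric actin, was 0.0230 to 0.0554 in controls and 0.0214 to 0.0760 in CKOs (log2 difference -0.21, exact permutation P = 0.526, adjusted P = 0.647). This difference was -0.44 without CKO 2, -0.36 without control 4, -0.10 without control 5, -0.11 without CKO 4 and -0.072 without CKO 5. Acta2 over Acta1 differed by 0.24 log2 units (exact permutation P = 0.260) and Actg1 over Actb by 0.088 (exact permutation P = 0.708).

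The balance between sarcomeric actin and tropomyosin passed neither threshold over all 12 mice. The ratio of Acta1 to Tpm1 was 0.894 ± 0.132 in controls and 0.937 ± 0.130 in CKOs (SD, n = 6), a log2 difference of 0.070 (exact permutation P = 0.582, adjusted P = 0.647). Acta1 over Tpm2 was 4.12 ± 0.370 and 3.86 ± 0.437, a log2 difference of -0.097 (exact permutation P = 0.255, adjusted P = 0.371). Tpm2 over Tpm1 was 0.217 ± 0.0196 and 0.244 ± 0.0359 (log2 difference 0.17, exact permutation P = 0.104, adjusted P = 0.260). Without CKO 4 the exact P of this ratio was 0.0498. Tpm4 over Tpm3 was 1.89 ± 0.788 and 1.25 ± 1.10 (log2 difference -0.96, exact permutation P = 0.143, adjusted P = 0.286), and without CKO 2 its exact P was 0.0346.

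**Figure D5:**
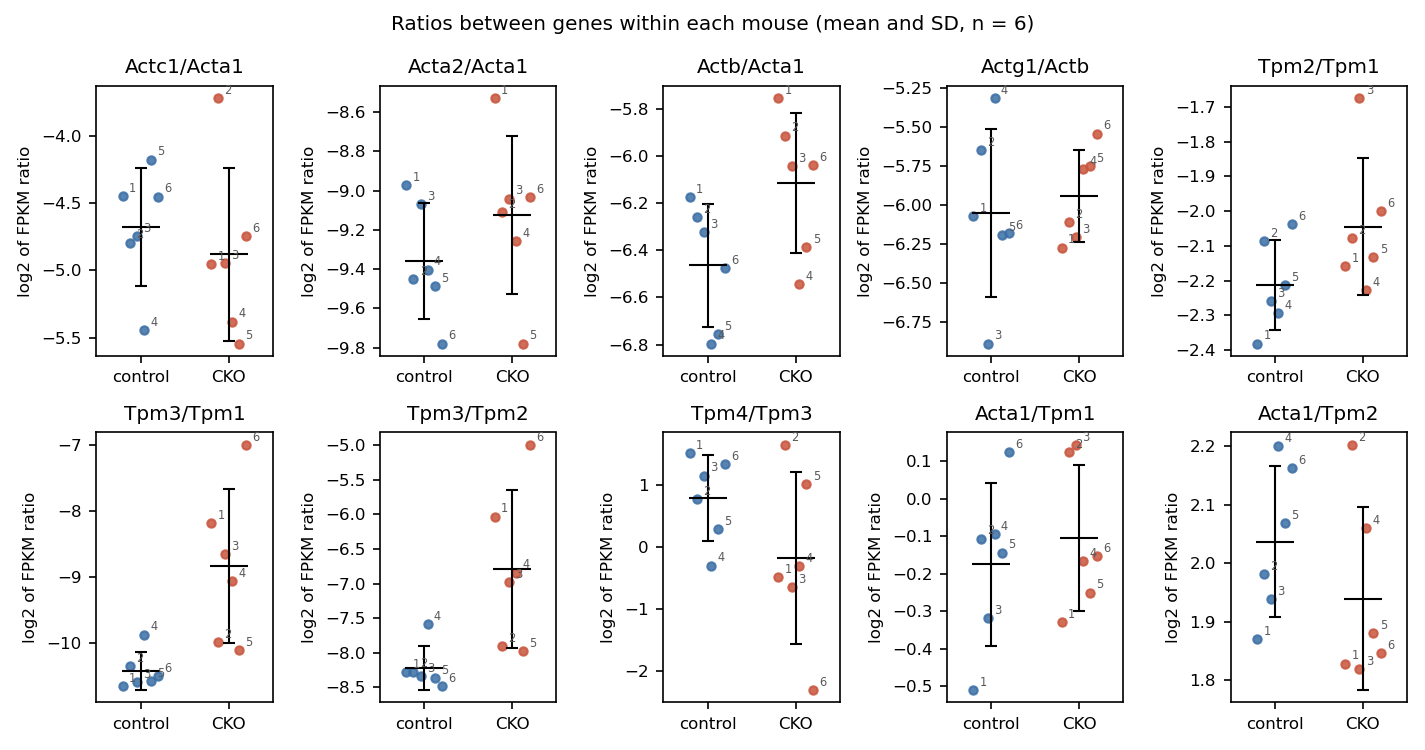
Log2 of the ratio between FPKM of pairs of genes (y axis, without a pseudocount) in each mouse, with 1 point per mouse numbered by replicate and the mean and SD of each group (n = 6). Tpm3 over Tpm1, Tpm3 over Tpm2 and Actb over Acta1 are higher in 4 of 6 CKOs than in any control. Tpm4 over Tpm3 is lower than in any control in 4 of 6 CKOs and higher in 1.

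Actin promoters can hold a CArG box, the element bound by serum response factor (SRF), which drives actin genes together with its myocardin-related coactivators. In RefSeq promoters of the GRCm38.p6 build, from 250 bases before to 50 bases after the start, at least 1 promoter was found for Acta1, Actc1, Acta2, Actg1, Tpm1, Tpm2, Tpm3 and Tpm4. The CArG box, searched on both strands, was found in 3 of these 8 genes, and in 1.63% of all 32851 promoters. These 30-base windows, on the minus strand and with the box in capitals, are shown because both sarcomeric actins carry the element before the RefSeq start, at 73 bases in Acta1 and 47 in Actc1, and Actg1 carries it at 90. The RefSeq start of Actc1 lies inside the gene as GENCODE draws it, so its window is upstream of the RefSeq start only and falls within the GENCODE gene.
Acta1, chr8:123894829-123894858: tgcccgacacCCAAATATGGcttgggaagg
Actc1, chr2:114052903-114052932: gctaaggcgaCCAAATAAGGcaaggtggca
Actg1, chr11:120348566-120348595: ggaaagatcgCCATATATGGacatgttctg
A match is a description of the letters and not a shown site, and the absence of a match in the other windows says only that these letters are not there. On both strands, TATAAA was found in the Acta1 and Actc1 windows (13.6% of all promoters), CATTCC in those of Acta1, Acta2 and Tpm1 (14.7%), CANNTG in those of all 8 genes (72.3%) and the MEF2 site in those of none (3.19%). Counted from the RefSeq start, the TATAAA match lay at -7 in Acta1 and at 33, after the start, in Actc1. Of 8 SRF regulators and coactivators tested, 2 were higher at an unadjusted P below 0.05, against 18.1% of all genes, and 0 at the adjusted one. After median-ratio scaling 0 were higher and 1 was lower before adjustment, against 6.62% and 7.44% of all genes. Srf was 2.96 ± 0.367 FPKM in controls and 3.82 ± 1.04 FPKM in CKOs (SD, n = 6; log2 fold change 0.32, adjusted P = 0.298), and the log2 fold changes of Elk4 and Scai were 0.25 and 0.38 (adjusted P = 0.160 and 0.168).

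Proteins that build, cap, turn over or fold actin filaments were examined in 4 lists. Of their 63 genes tested, 3 rose past the adjusted threshold in limma (Ssh3, Ssh2 and Arpc1a), where 2.02% of all genes did. At that threshold 0 were lower, against 0.268% of all genes, and 1, Capza2, was lower before adjustment. Since the lists were chosen with earlier results known, nothing is read from these shares. Among genes that cap or set the length of the thin filament, 3 of 15 had P below 0.05 as higher and 1 as lower before adjustment, where 18.1% and 1.76% of all genes did, and 0 did after it. Median-ratio scaling gave 3 higher and 3 lower before adjustment, against 6.62% and 7.44% of all genes. Tmod1, which caps the pointed end, was 34.1 ± 3.70 FPKM in controls and 46.5 ± 6.55 FPKM in CKOs (SD, n = 6; log2 fold change 0.44, adjusted P = 0.0539), and 5 of 6 CKOs were above every control. Klhl40 and Klhl41, which stabilize thin filament proteins, had log2 fold changes of 0.77 and 0.47 (adjusted P = 0.0655 and 0.0830). Capza2, a subunit of the barbed-end cap, had -0.32 (adjusted P = 0.211), and passed the adjusted threshold as lower only after median-ratio scaling, at -0.51 (adjusted P = 0.0318).

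In actin turnover, Ssh3 and Ssh2, phosphatases that activate the filament-severing cofilins, rose. Ssh3 was 0.205 ± 0.0939 FPKM in controls and 0.470 ± 0.0501 FPKM in CKOs (SD, n = 6), a log2 fold change of 0.95 (adjusted P = 0.0332), and Ssh2 was 7.77 ± 0.633 and 10.7 ± 1.53 FPKM, a log2 fold change of 0.44 (adjusted P = 0.0419). For both genes all 6 CKOs were above every control, which held for 2.23% of all genes tested. Ssh3 was close to the 0.1 FPKM filter, with 0.110 FPKM in its lowest control. The Arp2/3 subunit Arpc1a, part of the complex that starts branched filaments, rose by 0.59 (adjusted P = 0.0397). None of these 3 passed the adjusted threshold after median-ratio scaling, where the adjusted P were 0.0881, 0.256 and 0.128. All 14 genes of the actin chaperonin TRiC and of prefoldin, which fold new actin, had positive log2 fold changes as deposited, but so did 77.9% of all genes, and the list's median was 0.24 against 0.18. After median-ratio scaling 10 of 14 were positive, against 51.2% of all genes, with a median of 0.055. Of these 14, 3 were higher before adjustment, a share near the 18.1% of all genes, and 0 after it.

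Fiber type and developmental genes were read in the same libraries. Of the 12 fast fiber genes, 3 were higher and 0 lower before adjustment, against 18.1% and 1.76% of all genes. Of these, Myh1 rose past the adjusted threshold (log2 fold change 1.05, adjusted P = 0.00733). Myh4 and Myh2 had log2 fold changes of 0.77 and 1.18 (adjusted P = 0.0599 and 0.107). The list's median was -0.14. After median-ratio scaling 3 were higher and 5 lower before adjustment, against 6.62% and 7.44% of all genes. Among 10 embryonic and neonatal genes, 3 rose past the adjusted threshold, where 2.02% of all genes did. These were Sln, Chrna1 and Myh3 (log2 fold change 3.95, 0.81 and 2.67, with adjusted P = 0.0173, 0.0331 and 0.0358). After median-ratio scaling Sln and Myh1 kept an adjusted P below 0.05 (0.0236 and 0.0285), and Chrna1 and Myh3 did not (0.102 and 0.0524). The summed level of the list's 11 genes was 296 ± 98.3 FPKM in controls and 328 ± 91.3 FPKM in CKOs (SD, n = 6). Actc1, which also belongs to the embryonic program, had a log2 fold change of -0.54 that passed neither threshold as deposited. After median-ratio scaling its log2 fold change was -0.72 (unadjusted P = 0.0224, adjusted P = 0.255 in limma).

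For each of the 9 genes, the genes whose level followed it most closely within groups were found from Pearson's r over the 12 mice of log2 values, scaled by the median ratio and centred within each group, among 7961 genes with a mean of at least 1 FPKM. Tpm3 was most like Tnnt1 (r = 0.934), Atp2a2 (0.906) and Myh7 (0.904), which are all genes of slow fibers. Tpm3 and Tnnt1 spread far more among CKOs (SD 9.80 and 22.8 FPKM) than among controls (SD 1.01 and 1.70 FPKM). The CKOs therefore weigh most in that r. Actb was most like Col4a1 (0.950) and Col4a2 (0.940), the collagens of the basement membrane. Acta1 was most like Ghitm (0.915), Tpm1 like Eif4a2 (0.932), Tpm2 like Anp32e (0.908), Actc1 like H2-D1 (0.873), Acta2 like Acyp1 (0.936), Tpm4 like Dand5 (0.933) and Actg1 like Pold2 (0.830). These are descriptions over 12 points that share the libraries' scaling, and the highest of so many candidates is high by selection.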

How the data were processed

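Total RNA of the tibialis anterior was sequenced, 1 library per mouse, after rRNA removal (ScriptSeq Complete Gold). In the authors' pipeline a read counted only if tophat, running bowtie2, placed it at a single genomic position; up to 2 mismatches were tolerated. The submitters' processing notes name TopHat2 2.0.10, Cufflinks 2.1.1 and mm9. The annotation is not given in the sources used here. The deposited FPKM values, made by the authors with cufflinks, have 1 value per gene symbol and no counts. The study tested counts with DESeq, which could not be repeated. Depth in reads is unknown, so no counting interval was computed.

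Of 23950 rows, 27 carried a date for a symbol and were left out. Controls and CKOs were compared with limma 3.58.1 (R 4.3.3), with an intensity trend, on log2(FPKM + 0.1) for 12695 genes, those that reached 0.1 FPKM in 6 or more of 12 libraries, with Benjamini-Hochberg adjustment over all of them. A fold change on this scale understates that of low genes. Ratios used log2 of FPKM + 0.1 and an exact two-sided permutation test. The adjusted P of fold changes are limma's. Positions, transcripts and promoters came from GENCODE M21 and RefSeq (GRCm38), not from mm9.

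The members and gene lists were chosen with earlier results of these data known. Named were all members, the 3 genes of smallest P in each list plus any past the adjusted threshold, and the genes most like each member. Alternatives were a pseudocount of 1, no filter, a filter of 1 FPKM, quantile normalization, median-ratio scaling, a block for the replicate number, no trend, sample weights and each library left out. Scaling to the library sum was added after the values were seen. The code was tested on simulated data. The labels do not say that replicates are separate litters, and p-values measure the spread between these mice.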

Additional observations from a re-analysis of the deposited data

Results flagged for a closer look

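Within groups of 6 mice, 38 groups of values were searched for a mouse far from the others, and 8 held a value whose gap to the nearest mouse took more of the group's range than Dixon's 95% critical value allows. Chance alone flags about 1 in 20 groups. Actc1 in CKO 2 was 314 FPKM where the next mouse had 128, and the ratio of Actc1 to Acta1 in the same mouse was 0.0760 against 0.0373. Tpm2 was 1362 FPKM in control 1 where the next control had 1147, and 1151 FPKM in CKO 5 where the next CKO had 951. Tpm2 over Tpm1 was 0.313 in CKO 3 against 0.250 in the next CKO. Tpm3 over Tpm1 was 0.00106 in control 4 against 0.000761 in the next control, and 0.00784 in CKO 6 against 0.00342 in the next CKO. Tpm3 over Tpm2 was 0.00521 in control 4 against 0.00323. No cause of any of these values was tested.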

How the results depend on the processing

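None of the 9 genes passed the adjusted threshold under any alternative except Tpm3 with sample weights (1 gene higher) and Actc1 without CKO 2 (1 gene lower, so 0 to 1 with a library left out). The count of lower genes at the unadjusted threshold, 2, was 0 with no filter, 4 with median-ratio scaling or sample weights, 1 with quantile normalization, and 0 to 3 with a library left out. Genes of the 13 lists past the adjusted threshold as higher, 7, numbered 3 with no filter, 2 with median-ratio scaling or quantile normalization, 4 without the trend, 30 with sample weights, 11 with scaling to the library sum, and 2 to 24 with a library left out, the 24 without control 1; 1 was lower with median-ratio scaling. Over all genes, 257 were higher and 34 lower, against 1400 and 115 with sample weights, 97 and 90 with median-ratio scaling, 101 and 68 with quantile normalization, 170 and 23 with no filter, and 1075 and 69 without control 1. The direction turned for Acta2 with sample weights (0.0259), for Actb (-0.17 and -0.0132) and Actg1 (-0.0617 and -0.11) with median-ratio scaling and quantile normalization, and for Acta1 over Tpm1 as a difference of medians (-0.0345). With a library left out, the log2 fold change was -0.18 to 0.00458 for Acta2, -0.0575 to 0.10 for Actb, -0.0252 to 0.20 for Actg1 and -0.81 to -0.44 for Actc1, and the log2 ratio difference -0.0595 to 0.22 for Actg1 over Actb, 0.28 to 0.44 for Actb over Acta1, 0.0931 to 0.20 for Tpm2 over Tpm1 and -1.32 to -0.54 for Tpm4 over Tpm3. The causes were not tested.

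Whether replicate numbers pair the mice was not settled. The correlation of deviations was -0.0861 to 0.164 for same-numbered mice, with a mean of 0.0404 against -0.00879 for mice of different numbers. With 6 candidates each, 5 of 12 mice resembled their own number best. With the replicate block, 0 of the 9 genes were lower at the unadjusted threshold. With that block, the ratio of Actb to Acta1 (0.35) and of Tpm2 to Tpm1 (0.17) had an exact sign-flip P of 0.0312. This is the smallest P that 64 flips can give. Low FPKM and reads shared with near copies limit Actg1 and Tpm3 most.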
